A study of Drosophila melanogaster with 56 samples.

Results

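The fasting response of the body was set against that of the head in Drosophila melanogaster. For each probe set, the change from 0 to 48 h on body arrays was compared with the change from 0 to 48 h on head arrays, and the members were all 18769 probe sets of the array other than controls. The comparison used 18 of the 56 arrays of the study: 5 of body and 5 of head at 0 h (baseline), and 4 of body and 4 of head at 48 h of fasting. Each array held total RNA, amplified before labelling, from flies of a numbered pool, and body and head at a given time came from the same pools: 4, 5, 6, 8 and 9 at 0 h, and 4, 6, 7 and 8 at 48 h. Body was the fly with the head removed, and head was the head with its chemosensory organs taken off. Strain, sex, age and the number of flies in a pool are not given in the labels used here. Other arrays of the study covered 24 h of fasting, antenna, and maxillary palp with proboscis. No fed flies were sampled at 48 h, so fasting and elapsed time cannot be told apart.

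In flies, food is digested in the gut, which lies in the body, and fat, glycogen and storage proteins are held in fat body, a tissue found in the abdomen and thorax and also as a thin layer around the brain. The brain houses the neurosecretory cells that make the main insulin-like peptides, and during fasting falling insulin signalling and rising adipokinetic hormone turn these tissues from storage to release. A body sample and a head sample therefore share fat body, muscle, cuticle, nerve and blood cells but differ in gut, gonad, accessory gland and eye.

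The labels were set against marker genes. Phototransduction markers (trp, Arr2 and inaD) averaged 14.38 to 14.86 on head arrays, on a log2 signal scale whose floor lies near 2.08. Accessory gland markers averaged 12.76 to 14.25 in body and at most 2.14 in head, where all 5 were below 4 on every array, and testis markers averaged 12.77 to 13.34 in body. Gut markers (Jon65Aiii, Jon99Ci, alphaTry and Mal-A1) averaged 13.45 to 14.09 in body, while on head arrays they ranged from 2.54 to 13.53 at 0 h and from 6.15 to 11.32 at 48 h, with Head 0 h replicate 2 the highest at 13.53 and with the widest residual spread of the 18 arrays (SD 0.613). The 2 arrays of pool 4 at 48 h stood apart in yolk genes, at 8.74 in Body 48 h replicate 1 against 2.38 to 2.58 on the other body arrays and at 9.36 in Head 48 h replicate 1 against 5.25 to 6.14 on the other head arrays. The germline gene osk read 8.79 in Body 48 h replicate 1 and 2.08 on the other 17 arrays. The gap in signal between the 3′ and 5′ ends of control transcripts, which widens as RNA is broken or copied incompletely, was smaller in body (1.70 to 2.04 before and 1.99 to 2.46 after fasting) than in head (2.67 to 5.18 before and 3.28 to 7.28 after). The 0 h arrays of pool 9 (replicate 5 in both parts) were the lowest of their groups for the fat body genes fit, Obp99b and Lsp2. In whole tissue, fewer cells of a type and less RNA per cell cannot be told apart.

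Of the 18769 probe sets, 11543 reached a log2 signal of 4 on at least 4 of the 18 arrays and were tested. Of the other 7226, 6776 lay below 4 on all 18 arrays and 450 reached 4 on 1 to 3 of them. A part is called at the floor where all its arrays at both times lay below 4, and the interaction then comes mostly or wholly from the other part, although changes below 4 still enter the fit. Among tested probe sets, the head was at the floor for 1772 and the body for 1612. In what follows the interaction is the change in body minus the change in head, on the log2 scale, with its standard error from limma. A gene is called where the Benjamini-Hochberg adjusted p of limma's two-sided test was at most 0.05, and "rose" and "fell" are used for changes within a part that passed the same threshold.

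The interaction was called for 2326 of 11543 probe sets (20.2%), of which 1238 (10.7%) had the higher change in body and 1088 (9.43%) the lower. The median size of a called interaction was 1.00, and 1167 were of 1 log2 unit or more. Body changed at more probe sets than head: 2901 rose (25.1%) and 2178 fell (18.9%) in body, against 1372 (11.9%) and 1282 (11.1%) in head. Accordingly, most called interactions, 1637, paired a change in body with none called in head (880 rises and 757 falls). Another 324 paired a change in head with none called in body (154 rises and 170 falls), 322 were called in both, and 43 in neither. Of the 322, 191 went the same way and further in body, 74 the same way and further in head, and 57 in opposite directions (0.494% of those tested). A further 1286 probe sets changed in both parts in the same direction, 660 up and 626 down, with no call for the interaction.

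Many calls had a part at the floor. The head was at the floor for 796 of the 2326 (585 higher in body and 211 lower), the body for 143 (58 and 85), and neither part for 1387 (595 and 792). The last are called measured in both parts, although a part may have reached 4 on 1 array only. Among probe sets measured in both parts and changed in body only, 296 rose and 544 fell. Where both parts were measured, calls in the lower direction outnumbered those in the higher. Within pools, the body-minus-head difference at 0 h did not overlap that at 48 h for 1391 of the 2326 called probe sets, against 2161 of all 11543 tested (18.7%). Overlap was read from the same values that gave the calls, so it is not independent support for them. With the body and head arrays of each pool and time paired in the fit, 2100 were called, 1538 of them among the 2326. The paired result is given beside a gene below only where it differs. Without both 48 h arrays of pool 4, 1729 probe sets were called, and without both 0 h arrays of pool 9, 2251. With the gap between 3′ and 5′ ends as a covariate, 2031 of the 2326 calls remained.

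**Figure D1:**
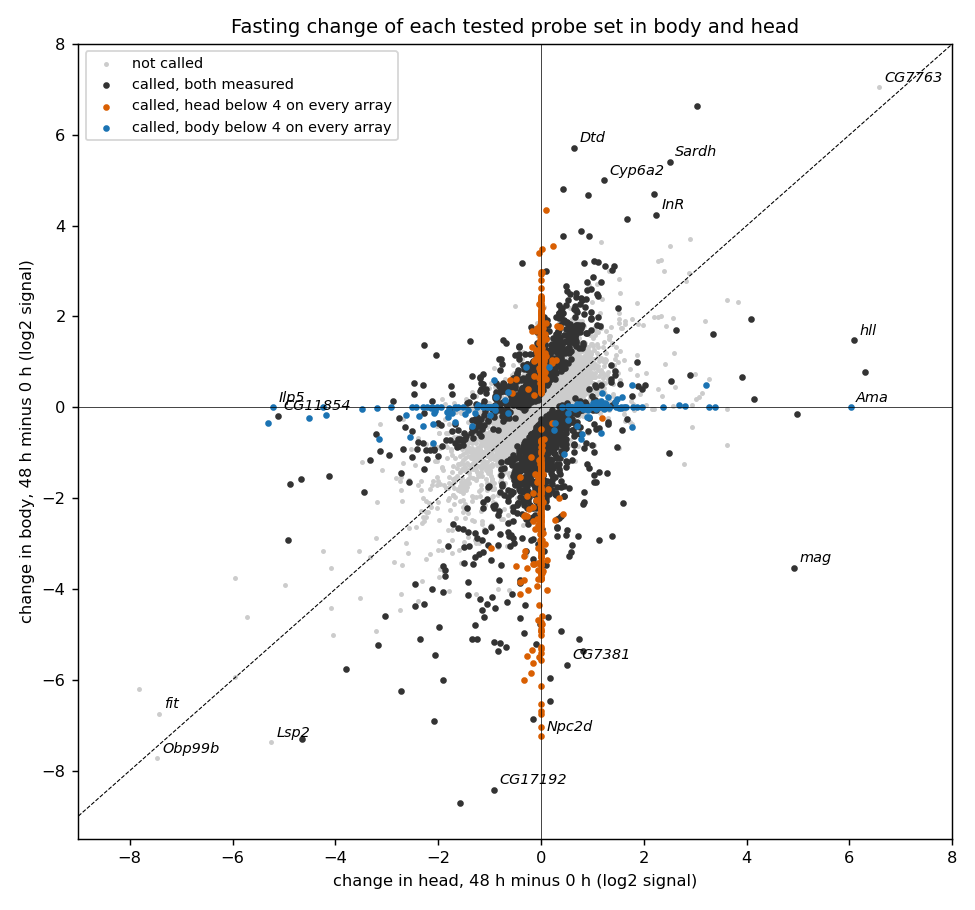
Change from 0 to 48 h of fasting in body (vertical axis) against the change in head (horizontal axis), in log2 signal, for the 11543 tested probe sets. Each point is a probe set, colours mark called interactions by whether a part lay below 4 on every array, and the dashed line marks equal change; mag, at -3.53 in body and 4.92 in head, lies farthest from the line, and CG7763 (interaction 0.47) and Obp99b (-0.26) lie near it.

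The gene with the widest difference of direction was mag, which encodes the gut lipase Magro. In body, mag read 13.08, 12.79, 12.80, 12.99 and 12.45 at 0 h, then 8.79, 9.82, 9.32 and 9.23 at 48 h. In head it read 3.83, 6.39, 2.55, 2.61 and 4.38 at 0 h and 9.87, 8.05, 9.64 and 7.92 at 48 h. The groups did not overlap in either part: body fell by 3.53 ± 0.56 while head rose by 4.92 ± 0.56, leaving both near 9 after fasting, and the interaction was -8.45 ± 0.79 (adjusted p = 9.72e-12). Beside this, the gut markers of the head arrays, 2.54 to 13.53 at 0 h (median 7.44) and 6.15 to 11.32 at 48 h (median 8.88), overlapped between times. At 0 h mag read 6.39 on the head array with the highest gut markers (replicate 2, 13.53) and 2.61 on that with the lowest (replicate 4, 2.54). At 48 h it read 9.64 on the highest (replicate 3, 11.32) and 7.92 on the lowest (replicate 4, 6.15). The highest mag reading at 48 h, 9.87, was on replicate 1, where gut markers averaged 7.20. Replicate 2 read 8.05 with gut markers at 10.57. The other 0 h head arrays, replicates 1, 3 and 5, read 3.83, 2.55 and 4.38 with gut markers at 9.0, 5.42 and 7.44. The part of gut transcripts in the result was not tested.

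Other genes called in opposite directions moved less. CG40486 fell by 2.1 ± 0.36 in body and rose by 1.60 ± 0.36 in head (interaction -3.70 ± 0.51, adjusted p = 1.92e-07). On head arrays it read 7.83, 9.42, 8.66, 8.67 and 9.26 at 0 h and 10.37, 10.56, 9.94 and 10.60 at 48 h, with no overlap. The serine protease gene spirit, which acts upstream of the Toll receptor in infection, fell by 1.48 ± 0.21 in body and rose by 1.04 ± 0.21 in head (-2.52 ± 0.29, adjusted p = 3.22e-09). All body arrays of spirit lay below 4 at 48 h, so that fall is bounded only as at least 1.18-fold. CG5731 fell by 1.42 ± 0.25 in body and rose by 1.12 ± 0.25 in head (-2.54 ± 0.36, adjusted p = 3.15e-07). SmydA-2, of a family of SET and MYND domain proteins, fell by 1.45 ± 0.48 and rose by 1.29 ± 0.48 (-2.74 ± 0.68, adjusted p = 0.00239). Its body arrays overlapped between times, at 6.77 to 8.43 and 4.92 to 7.39. All its head arrays lay below 4 at 0 h, so the rise there is bounded only as at least 1.68-fold.

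The reverse pattern was seen for CG5653, Root and CG43085. CG5653 rose by 1.36 ± 0.42 in body and fell by 2.28 ± 0.42 in head (3.64 ± 0.59, adjusted p = 6.03e-06), with overlap in body (5.74 to 7.52 and 7.05 to 8.81) and none in head (5.87 to 7.62 and 3.85 to 5.29). Root, which encodes the ciliary rootlet protein rootletin, rose by 1.15 ± 0.44 in body and fell by 2.04 ± 0.44 in head (3.19 ± 0.62, adjusted p = 0.000136). CG43085 rose by 1.47 ± 0.43 and fell by 1.38 ± 0.43 (2.85 ± 0.61, adjusted p = 0.000524). Its arrays overlapped between times in body (4.05 to 6.43 and 6.13 to 7.53) and in head (4.62 to 6.20 and 3.56 to 4.96). In Root, as in CG5653, head arrays did not overlap (6.53 to 8.42 and 5.06 to 6.22) and body arrays did (6.66 to 8.53 and 7.53 to 9.43). All 8 genes were called in the paired fit as well.

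**Figure D2:**
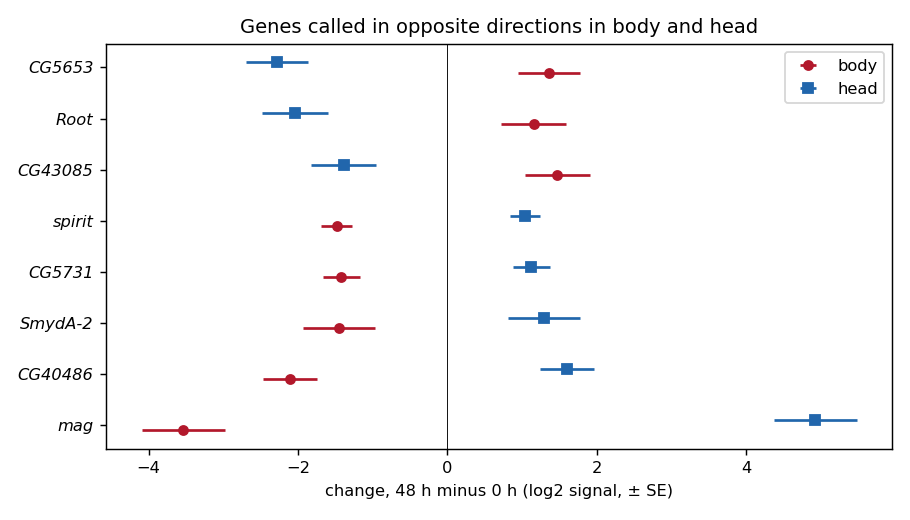
Changes from 0 to 48 h in body (circles) and head (squares), in log2 signal with standard errors, for the 8 genes called in opposite directions whose smaller change was largest. Spread between parts is widest for mag, at -3.53 and 4.92. Arrays of spirit in body at 48 h and of SmydA-2 in head at 0 h all lay below 4.

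Of the 6 genes with the lowest interactions where neither part was at the floor, 5 encode digestive enzymes or their relatives: mag, CG17192, Jon99Fi, Jon25Bi and Jon25Bii. Apart from mag, these reached 4 in head on at most 2 of 5 arrays at 0 h and at most 1 of 4 at 48 h. Counted by gene, with 1 probe set each, 2048 of 9556 genes were called (21.4%), 1083 higher in body (11.3%) and 965 lower (10.1%), with a median interaction of 0.04. In body 26.1% of genes rose and 19.9% fell, and in head 12.2% rose and 11.6% fell. Of 22 gut serine proteases tested, 0 were called higher and 10 lower, all 10 of which fell in body while none was called in head, and the list's median interaction was -1.59. Of 13 lipases, 1 was higher and 7 lower (median -1.93). Of 12 carbohydrases, 0 were higher and 2 lower (median -0.84), and these were 0 in the paired fit and 4 without Head 0 h replicate 5 or without Body 48 h replicate 3. The head was at the floor for 7 of the 10 proteases and for both carbohydrases, so there the interaction comes almost wholly from the body.

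CG17192, a member of the lipase family, went from 10.21, 9.78, 9.43, 10.76 and 12.32 in body at 0 h to 2.08 on all 4 arrays at 48 h, a fall of at least 90.6-fold. Head arrays read 2.08 except for 6.62 on Head 0 h replicate 2. The interaction was -7.51 ± 0.75 (adjusted p = 6.36e-11), and head thus held almost no signal to change. The Jonah protease gene Jon99Fi read 11.52, 11.20, 10.73, 12.31 and 12.93 in body at 0 h and 2.62, 2.08, 5.35 and 2.09 at 48 h, and in head 8.02 and 4.12 on Head 0 h replicates 1 and 5 and at most 2.14 on the other 7 (interaction -7.12 ± 1.02, adjusted p = 4.98e-07). Its relatives Jon25Bi (-6.71 ± 2.01, adjusted p = 0.0131) and Jon25Bii (-6.64 ± 1.87, adjusted p = 0.00785) changed in body by -6.86 ± 1.42 and -6.46 ± 1.32. Single head arrays carried both genes: Jon25Bi read 10.03 on Head 0 h replicate 2, 7.89 on Head 48 h replicate 3 and at most 2.12 on the other 7, and Jon25Bii read 9.20 and 8.34 on the same arrays. In the paired fit neither was called (adjusted p = 0.0636 and 0.0868), nor was Jon25Bi without Head 48 h replicate 3 (adjusted p = 0.0583). Those arrays had the highest gut marker means of their groups, 13.53 and 11.32, whose part in the result was not tested.

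CG18301, a lipase family gene at the floor in head, fell from 11.32 to 11.81 down to 2.53 to 8.33 in body (-5.17 ± 0.68, adjusted p = 7.05e-08). Other digestive genes differed in pattern. CG7367, another member of the lipase family, was at the floor in body and rose by 2.68 in head, and Lip2 was the 1 lipase called higher, with a fall of 1.16 in head and a change of 0.54 in body that was not called. Amyrel and Mal-A4, genes of the amylase and maltase families, had interactions of -2.41 ± 0.71 (adjusted p = 0.0112) and -2.39 ± 0.60 (adjusted p = 0.00261) that were lost in the paired fit (adjusted p = 0.0915 and 0.0743) and with the 18 arrays fitted alone (adjusted p = 0.0825 and 0.0644). The glucosidase gene tobi, a target of insulin and adipokinetic hormone, fell by 1.86 ± 0.59 in head (8.91 to 12.09 at 0 h, 7.40 to 10.23 at 48 h) with a body change of 0.08 ± 0.59, and its interaction of 1.94 ± 0.83 was not called (adjusted p = 0.0907).

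**Figure D3:**
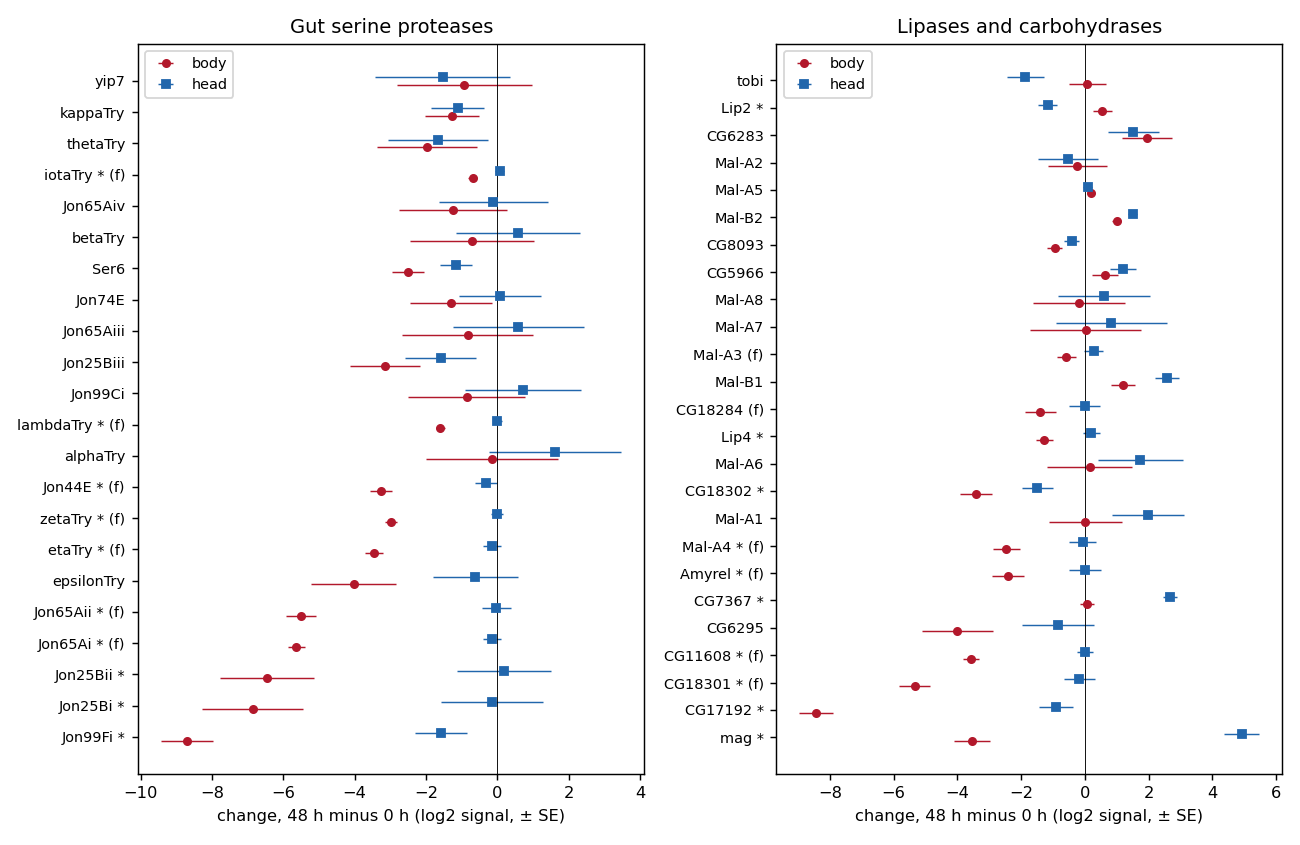
Changes from 0 to 48 h in body (circles) and head (squares), in log2 signal with standard errors, for tested gut serine proteases (left) and for lipases and carbohydrases (right), ordered by interaction. A star marks a called interaction and (f) a head below 4 on every array; called proteases lie low in body and, except for Jon99Fi, near 0 in head, and Jon99Fi is lowest in body at -8.70.

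Further body falls had little or no counterpart in head. For CG7381 the head held about as much signal as the body before fasting. In body it read 8.29, 7.81, 8.85, 8.65 and 6.23 at 0 h and 2.21, 2.49, 2.29 and 2.23 at 48 h, a fall of at least 15.6-fold. Head arrays read 7.07, 7.77, 7.76, 7.85 and 8.47 at 0 h and 7.96, 8.36, 8.17 and 8.68 at 48 h. The groups were fully apart in body and overlapped in head, with an interaction of -6.17 ± 0.43 (adjusted p = 1.48e-15).

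With the head at the floor, Npc2d, of the Npc2 family of sterol-binding proteins, read 10.83, 9.80, 10.04, 10.88 and 10.03 in body at 0 h and 2.47, 5.01, 2.47 and 2.34 at 48 h (-7.25 ± 0.47, adjusted p = 8.57e-17). CG11912 fell by at least 43.0-fold (-7.04 ± 0.38, adjusted p = 1.40e-19) and CG33325 by 6.75 ± 0.45 (interaction -6.75 ± 0.63, adjusted p = 1.13e-11). Body arrays of all 3 genes were separate between times. Of 7 Npc2 genes, 0 were called higher and 3 lower (median 0.10): Npc2e had an interaction of -4.06 ± 0.71 (adjusted p = 2.48e-05), and Npc2f one of -2.31 ± 0.78 (adjusted p = 0.0283) that was lost in the paired fit (adjusted p = 0.0726) and without any 1 of 5 arrays (adjusted p up to 0.0796). Of 6 Malpighian tubule genes, 0 were higher and 3 lower, all with the head at the floor: the organic anion transporter genes Oatp58Da (-3.39 ± 0.35, adjusted p = 2.34e-10) and Oatp58Db (-2.80 ± 0.30, adjusted p = 5.27e-10), and salt (-0.88 ± 0.20, adjusted p = 0.000808).

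A smaller set of genes responded mainly in the head. Ama, which encodes the adhesion protein Amalgam of the nervous system, lay near 2.08 on all body arrays. In head it read 2.59, 2.25, 2.49, 2.69 and 3.33 at 0 h and 8.60, 7.79, 9.13 and 9.26 at 48 h, a rise of at least 25.9-fold, and the interaction of -6.02 ± 0.29 (adjusted p = 1.70e-21) is the head's change alone. No array of the fasted heads overlapped those at 0 h. CG14221 rose in head from 3.63 to 4.81 up to 6.98 to 8.07 (-3.39 ± 0.44, adjusted p = 6.48e-08), and the P450 gene Cyp6t3 rose at least 5.31-fold (-3.26 ± 0.25, adjusted p = 4.13e-14), both with the body at the floor. In the other direction, CG7227 fell in head from 7.58 to 8.01 down to 2.20 to 2.85, at least 14.1-fold (4.97 ± 0.48, adjusted p = 2.96e-11). The cuticle protein gene Cpr76Bc fell at least 6.87-fold (4.23 ± 0.44, adjusted p = 2.47e-10). CG11854 fell in head by 5.11 ± 0.55, from 9.54, 9.97, 6.93, 10.03 and 8.13 to 4.05, 2.52, 4.85 and 3.82, while in body it read 2.23 to 4.48 at both times (4.93 ± 0.77, adjusted p = 3.32e-06).

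Among fuel genes, hll, which encodes an acyl-CoA synthetase, rose in both parts and much further in head. Body arrays read 2.26 to 2.27 at 0 h and 4.34, 3.14, 4.30 and 3.16 at 48 h, whereas head arrays read 3.41, 3.56, 3.81, 3.65 and 2.88 at 0 h and 10.05, 9.86, 9.52 and 8.81 at 48 h. By 48 h the rise was 1.47 ± 0.35 in body and 6.09 ± 0.35, at least 47.1-fold, in head (interaction -4.62 ± 0.50, adjusted p = 6.18e-10). At 24 h, however, body arrays read 8.69, 6.73, 6.29, 6.16 and 7.37, above those of both other times, and head arrays 9.88 to 10.95. The triglyceride lipase gene bmm also rose in both parts. It read 11.65, 12.22, 11.97, 11.57 and 11.89 in body at 0 h and 12.94, 12.82, 12.94 and 12.72 at 48 h, and 11.74, 11.81, 11.50, 11.71 and 11.49 in head at 0 h and 13.71, 13.37, 13.48 and 13.50 at 48 h. Both parts started level, and the rise was 0.99 ± 0.12 in body and 1.87 ± 0.12 in head (-0.88 ± 0.17, adjusted p = 0.000121).

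Treh, which encodes trehalase, the enzyme that splits the blood sugar trehalose, rose in head alone by 0.73 ± 0.08, with a change of -0.08 ± 0.08 in body (-0.82 ± 0.11, adjusted p = 2.07e-07). Head arrays read 12.43 to 12.69 and then 13.12 to 13.40, and body arrays 11.73 to 12.05 and then 11.68 to 11.94. Bcat, the branched-chain amino acid transaminase gene, rose by 0.52 ± 0.17 in body and 1.53 ± 0.17 in head (-1.02 ± 0.24, adjusted p = 0.00168). For these 4 genes the rise was the steeper in head. Acox57D-d and Hmgs, genes of a peroxisomal acyl-CoA oxidase and of HMG-CoA synthase, fell further in body, by -3.89 ± 0.32 against -2.44 ± 0.32 (-1.44 ± 0.45, adjusted p = 0.0165, and 0.0564 without Body 48 h replicate 2) and by -1.01 ± 0.11 against -0.44 ± 0.11 (-0.58 ± 0.15, adjusted p = 0.00364). ACC, the acetyl-CoA carboxylase gene of fatty acid synthesis, rose by 0.51 ± 0.11 in head with 0.02 ± 0.11 in body. Its interaction of -0.49 ± 0.16 (adjusted p = 0.0199) was lost in the paired fit (adjusted p = 0.0925), without Body 48 h replicate 1 (adjusted p = 0.0731) and without Body 48 h replicate 4 (adjusted p = 0.0787).

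By list, 13 genes of lipolysis and fatty acid oxidation held 0 called higher and 3 lower (median 0.01), and 16 of fatty acid and triglyceride synthesis held 0 higher and 3 lower (median -0.26). The latter was 5 without Body 48 h replicate 3 and 1 in the paired fit. The lipolysis list was 5 without Head 48 h replicate 2 or without Head 0 h replicate 5. Besides ACC, the called synthesis genes were FarO (-2.08 ± 0.32, adjusted p = 1.96e-06, head at the floor), of a fatty acyl-CoA reductase, and ATPCL, of ATP citrate lyase. ATPCL had an interaction of -0.84 ± 0.27 (adjusted p = 0.0218) that was lost in the paired fit (adjusted p = 0.063) and without Head 48 h replicate 2, Head 48 h replicate 3 or Head 0 h replicate 5 (adjusted p = 0.0573, 0.0526 and 0.0564). FASN1, the fatty acid synthase gene, fell by 0.35 ± 0.10 in body with -0.05 ± 0.10 in head, and the interaction of -0.31 ± 0.14 was not called (adjusted p = 0.113).

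None of 11 glycolysis genes was called by limma (median 0.01), with 0 at an unadjusted p under 0.05, 0 in the paired fit and 0 in every fit that left out 1 array. Treh was the 1 called gene of 12 for trehalose, glycogen and gluconeogenesis, a count of 2 without Head 48 h replicate 2, Body 0 h replicate 3, Body 48 h replicate 2, Body 48 h replicate 3 or Body 0 h replicate 4. Pepck1, the gluconeogenic enzyme gene, had a change of -0.07 ± 0.13 in body and -0.05 ± 0.13 in head (-0.01 ± 0.19, adjusted p = 0.972). Of 8 fat body and hemolymph carrier genes, 6 fell in body and 6 in head, and 1 was called in the interaction: NLaz, a lipocalin gene (0.45 ± 0.15, adjusted p = 0.0242). That call was lost in the paired fit (adjusted p = 0.103), without Head 0 h replicate 2 (adjusted p = 0.058) and without Body 48 h replicate 3 (adjusted p = 0.0782). The lipoprotein receptor gene LpR1 rose by 1.34 ± 0.16 in body and 0.68 ± 0.16 in head (0.66 ± 0.23, adjusted p = 0.0317), lost without any 1 of 5 arrays (adjusted p up to 0.101). For apolpp, the lipophorin gene, both parts fell and the interaction of -0.41 ± 0.23 was not called (adjusted p = 0.21).

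Several of the steepest rises in body were of genes that the unfasted head already expressed. Dtd, which encodes a D-aminoacyl-tRNA deacylase, read 3.09, 2.71, 2.96, 3.64 and 3.42 in body at 0 h and 9.15, 8.72, 8.25 and 9.41 at 48 h, at least 29.5-fold higher. Head arrays read 8.25, 8.85, 8.67, 8.48 and 8.95 at 0 h and 9.61, 8.78, 9.35 and 9.38 at 48 h. The fasted body thus came to the level of the unfasted head, and the interaction was 5.08 ± 0.38 (adjusted p = 1.82e-14). CG43117 rose in body by at least 11.0-fold, from 2.62 to 2.75 up to 6.87 to 8.11, with head at 7.65 to 9.74 at both times (4.38 ± 0.60, adjusted p = 2.03e-07). Cyp6a2, a P450 gene, rose from 3.08 to 5.19 up to 8.74 to 9.72 in body and from 8.03 to 8.70 up to at least 9.13 in head (3.77 ± 0.36, adjusted p = 1.42e-11). In contrast, CG34290 was low in head throughout (2.08 to 4.51) and rose in body from 3.45 to 5.50 up to 7.88 to 9.21 (3.76 ± 0.57, adjusted p = 1.67e-06).

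Sardh, the sarcosine dehydrogenase gene of one-carbon metabolism, read 2.88, 5.94, 6.06, 5.60 and 2.44 in body at 0 h and 9.82, 10.05, 10.61 and 9.50 at 48 h. Head arrays read 9.23, 9.29, 9.18, 9.16 and 8.32 at 0 h and 12.06, 11.45, 11.22 and 11.43 at 48 h. It rose without overlap in both parts, by 5.41 ± 0.44 in body and 2.50 ± 0.44 in head (2.91 ± 0.62, adjusted p = 0.000419). Of 19 amino acid breakdown and one-carbon genes, 11 rose in body and 9 in head, and 1 was called higher and 3 lower in the interaction (median -0.02), a total of 8 without Head 0 h replicate 5. P5CDh1, a gene of proline breakdown (-0.54 ± 0.19, adjusted p = 0.0392), was lost in the paired fit (adjusted p = 0.148) and without any 1 of 10 arrays (adjusted p up to 0.113).

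Of 20 autophagy genes, 13 rose in body and 8 in head, with 2 called higher and 1 lower in the interaction (median 0.11), a total of 5 without Body 48 h replicate 4. Atg1, the kinase that starts autophagy, rose by 1.99 ± 0.22 in body (6.17 to 6.84, then 7.89 to 9.13), with 0.29 ± 0.22 in head, where it began higher, at 9.31 to 9.89 (1.70 ± 0.31, adjusted p = 4.28e-05). Atg18b had an interaction of 1.84 ± 0.50 (adjusted p = 0.00552) that was lost in the paired fit (adjusted p = 0.106). The autophagy receptor gene ref(2)P rose by 0.52 ± 0.11 in head, with -0.20 ± 0.11 in body (-0.72 ± 0.16, adjusted p = 0.000634). Of 25 ribosome biogenesis genes, 14 rose in body and 9 in head. Those called were ppan (1.02 ± 0.27, adjusted p = 0.00551) and Ns2 (0.35 ± 0.12, adjusted p = 0.0397), both of which were lost in the paired fit (adjusted p = 0.0697 and 0.106). Ns2 was also lost without any 1 of 7 arrays (adjusted p up to 0.114), and without Body 48 h replicate 2 the list held 4.

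In the insulin pathway, 4 of 15 genes were called, all higher in body (median 0.04), although they moved in different ways. The receptor gene InR read 2.89, 3.49, 2.69, 2.47 and 3.72 in body at 0 h and 7.56, 7.19, 7.66 and 6.75 at 48 h, a rise of at least 9.79-fold. Head arrays read 7.31, 7.33, 6.69, 6.49 and 6.88 at 0 h and 10.01, 8.58, 9.17 and 8.97 at 48 h. Both parts rose without overlap, by 4.24 ± 0.32 and 2.24 ± 0.32, and the interaction was 1.99 ± 0.45 (adjusted p = 0.000892). The receptor substrate gene chico followed the same order, with a rise of 1.71 in body and 0.98 in head.

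Both insulin-like peptide genes named here were measured in head alone. Ilp5, made by the brain's insulin-producing cells, was at 2.08 on every body array, and in head it read 11.77, 11.31, 12.01, 12.06 and 11.35 at 0 h and 7.14, 7.19, 6.03 and 5.62 at 48 h (interaction 5.21 ± 0.62, adjusted p = 6.10e-09). Ilp2, of the same cells and likewise at 2.08 in body, read 13.14, 12.95, 12.98, 13.05 and 13.02 in head at 0 h and 12.57, 12.30, 12.62 and 12.20 at 48 h. The head groups did not overlap, yet the change of -0.61 ± 0.82 was not called (interaction 0.61 ± 1.15, adjusted p = 0.763). The standard error there pools the spread of all 12 groups of the study, and in the paired fit of the 18 arrays Ilp2 was called (adjusted p = 0.0174). Sdr, which encodes a secreted decoy of the insulin receptor, stayed below 4 in body, where it rose by 0.35 ± 0.12, and fell by 0.64 ± 0.12 in head (0.99 ± 0.17, adjusted p = 1.08e-05). ImpL2, another insulin-binding protein gene, rose by 0.83 ± 0.21 in head with 0.13 ± 0.21 in body, and its interaction of -0.70 ± 0.29 was not called (adjusted p = 0.0846). The transcription factor gene foxo had an interaction of 0.40 ± 0.32 (adjusted p = 0.413), and the stress-response gene Sesn rose in both parts, by 0.89 ± 0.11 and 1.07 ± 0.11 (-0.18 ± 0.15, adjusted p = 0.45).

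For other feeding hormones, 1 of 21 genes was called higher and 1 lower (median 0.20), a total of 6 in the paired fit. NPF, the fly neuropeptide Y homologue, which both brain and gut produce, fell by 1.85 ± 0.34 in body, from 8.79, 8.13, 7.92, 9.15 and 9.01 to 7.28, 5.79, 7.51 and 6.43. In head it stayed between 12.25 and 12.71 on all 9 arrays (-1.73 ± 0.48, adjusted p = 0.0076). CCAP, a cardioactive peptide gene, fell by 0.87 ± 0.28 in head with 0.54 ± 0.28 in body (1.41 ± 0.40, adjusted p = 0.00845). The adipokinetic hormone gene Akh had a change of 1.13 ± 0.86 in body and 0.89 ± 0.86 in head (0.24 ± 1.21, adjusted p = 0.916). Head arrays of Akh did not overlap (12.67 to 13.75 and 13.81 to 14.13), and body arrays did (8.90 to 10.14 and 9.95 to 11.32). As for Ilp2, the standard error pools the spread of all 12 groups. The Akh receptor gene AkhR fell in both parts by closely similar amounts, 2.30 ± 0.33 in body and 2.20 ± 0.33 in head (-0.10 ± 0.47, adjusted p = 0.91). The second probe set of AkhR had an interaction of the opposite sign that was called, so the gene's probe sets disagree.

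Families of detoxification genes split in both directions. Of 30 glutathione transferases, 18 fell in body and 16 in head and none rose in either, with 7 called higher and 6 lower in the interaction (median 0.06). All 7 higher ones fell in head, 3 of them also in body, and all 6 lower ones fell in body, 1 of them also in head. GstD1, for example, changed by -0.06 in body and -0.91 in head, and GstE10, at the floor in head, fell in body from 9.12 to 9.87 down to 3.70 to 4.95 (-5.28 ± 0.43, adjusted p = 1.92e-13). GstD5 (-3.32 ± 0.60, adjusted p = 4.57e-05) had the head at the floor as well. GstD11 fell in body by 2.81 ± 0.29 and had a change of 0.48 ± 0.29 in head, where it was measured on every array (-3.29 ± 0.41, adjusted p = 2.26e-08). The UDP-glycosyltransferases were divided in the same manner: of 22, 4 were higher, all of which fell in head, and 6 were lower, all of which fell in body (median -0.18). Ugt36E1 led the latter (-2.52 ± 0.49, adjusted p = 0.000154) and Ugt302K1, at the floor in body, the former (1.95 ± 0.26, adjusted p = 1.59e-07). Ugt37A2, at the floor in head (-2.29 ± 0.55, adjusted p = 0.00172), was lost in the paired fit (adjusted p = 0.0892).

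Cytochromes P450 leaned to the lower side, with 5 of 72 called higher and 17 lower (median 0.04). Of the 17, 13 fell in body and 6 rose in head. Cyp4d1 fell in body by at least 7.03-fold, from 5.86 to 8.49 down to 2.32 to 2.64, with head at 3.77 to 5.15 throughout (-4.03 ± 0.54, adjusted p = 1.01e-07). Cyp6a18, at the floor in head, fell from 8.51 to 9.10 down to 3.48 to 6.71 (-3.30 ± 0.38, adjusted p = 3.34e-09). Cyp313a4 and Cyp6a8 rose in both parts, by 1.61 and 1.71 in body and by 3.35 and 2.62 in head. Thus lower calls covered both a fall in body and a steeper rise in head.

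Other calls were of genes known from organs that lie in the body alone. Of 33 testis and sperm genes, 6 were called higher and 0 lower (median 0.38), all 6 with the head at the floor. The count was 3 without Body 48 h replicate 1, and 7 higher and 2 lower in the paired fit. Those named were fzo (1.08 ± 0.26, adjusted p = 0.00185), a mitochondrial fusion gene of sperm development, S-Lap5 (0.94 ± 0.23, adjusted p = 0.00239), a sperm leucyl aminopeptidase gene, and Mst84B (0.91 ± 0.32, adjusted p = 0.0374), which was lost without any 1 of 10 arrays (adjusted p up to 0.099). Mst84B reached an adjusted p of 0.177 with cyclic loess. Body arrays of fzo read 7.45 to 8.18 at 0 h and 8.55 to 9.53 at 48 h, without overlap.

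Among respiratory chain genes, most of the calls also had the head at the floor. Of 71 oxidative phosphorylation genes, 8 were called higher and 2 lower (median 0.10), beside 11.3% higher and 10.1% lower over all genes. Their total was 6 in the paired fit and 6 without Body 48 h replicate 1. The 8 were COX6AL, ND-20L, ND-24L, ND-51L1, ND-51L2, ND-B14.5AL, UQCR-11L and UQCR-14L, and for all except UQCR-11L the head was at the floor. UQCR-11L fell by 2.30 ± 0.39 in head with 0.50 ± 0.39 in body (2.79 ± 0.55, adjusted p = 0.000178). Its counterpart UQCR-11 fell by 1.46 ± 0.36 in body (-1.39 ± 0.51, adjusted p = 0.043), lost in the paired fit (adjusted p = 0.0662) and without any 1 of 11 arrays (adjusted p up to 0.155, and 0.236 without both 48 h arrays of pool 4), and ND-20L (1.19 ± 0.42, adjusted p = 0.0405) was lost in the paired fit (adjusted p = 0.0663) and without any 1 of 13 (adjusted p up to 0.118). Of 30 vacuolar ATPase genes, 8 were higher and 0 lower (median 0.26), 5 of them with the head at the floor. Vha16-5 (1.32 ± 0.23, adjusted p = 3.30e-05) and Vha100-3 (1.19 ± 0.34, adjusted p = 0.0101) were among those 5. Vha36-3, measured in both (0.91 ± 0.29, adjusted p = 0.0227), was lost in the paired fit (adjusted p = 0.0762), without Head 48 h replicate 4 (adjusted p = 0.099) and without Body 48 h replicate 4 (adjusted p = 0.0611).

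CG14957 and the axonemal dynein heavy chain genes Dnah3 and Dhc16F led the rises in body with the head at the floor. Dnah3 read 3.36, 2.73, 6.44, 3.90 and 4.91 at 0 h and 7.73, 8.08, 6.99 and 8.21 at 48 h (3.47 ± 0.78, adjusted p = 0.000826). Dhc16F read 2.82, 2.83, 4.54, 3.48 and 3.60 at 0 h and 6.60, 7.67, 5.70 and 7.43 at 48 h (3.43 ± 0.55, adjusted p = 5.57e-06). CG14957 had an interaction of 4.25 ± 1.00 (adjusted p = 0.00149). None of the 3 overlapped between times in body. Beside these rises, the testis markers of the body arrays averaged 12.77 to 12.98 at 0 h and 13.00 to 13.34 at 48 h, and the accessory gland markers 13.91 to 14.25 and then 12.76 to 13.30, whose part in the results was not tested.

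Accessory gland genes, which encode seminal fluid proteins, were at the floor in head for 17 of 18. They held 0 called higher and 1 lower (median -0.73) in the fit over 56 arrays, and 12 lower in the paired fit. With the 18 arrays alone 14 were called. Acp76A, the 1 called in the fit over 56 arrays, read 13.21, 13.23, 13.26, 13.31 and 13.68 in body at 0 h and 10.57, 11.68, 10.43 and 9.68 at 48 h (-2.75 ± 0.96, adjusted p = 0.0358). It was lost without any 1 of 6 arrays (adjusted p up to 0.0895), and without Body 48 h replicate 2 the list held 2. Obp56f, a seminal fluid odorant-binding protein gene at the floor in head, fell alike, from 12.40 to 12.64 down to 9.51 to 11.04 (-2.02 ± 0.71, adjusted p = 0.0366), lost without any 1 of 8 arrays (adjusted p up to 0.0942). Of 7 genes listed as female germline genes, bgcn alone was called (1.90 ± 0.60, adjusted p = 0.0196, head at the floor), and not without Body 48 h replicate 1 or Body 48 h replicate 4 (adjusted p = 0.0598 and 0.0557) or without both 48 h arrays of pool 4 (adjusted p = 0.0718). On Body 48 h replicates 2, 3 and 4, where osk read 2.08, bgcn read 6.36, 4.75 and 6.77, so its signal cannot be taken as that of female germline. The germline list held 2 without Head 48 h replicates 2 or 3 or Head 0 h replicates 4 or 5. Of 10 cell cycle genes, fzy alone was called (1.55 ± 0.57, adjusted p = 0.0467, head at the floor), lost in the paired fit (adjusted p = 0.128) and without any 1 of 14 arrays (adjusted p up to 0.212, and 0.244 without both 48 h arrays of pool 4), and that list held 2 without Body 48 h replicate 2 or 3. None of 4 yolk and eggshell genes was called by limma, with 1 at an unadjusted p under 0.05 and 0 in the paired fit, against 1 without Head 0 h replicate 4 or Head 0 h replicate 5.

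**Figure D4:**
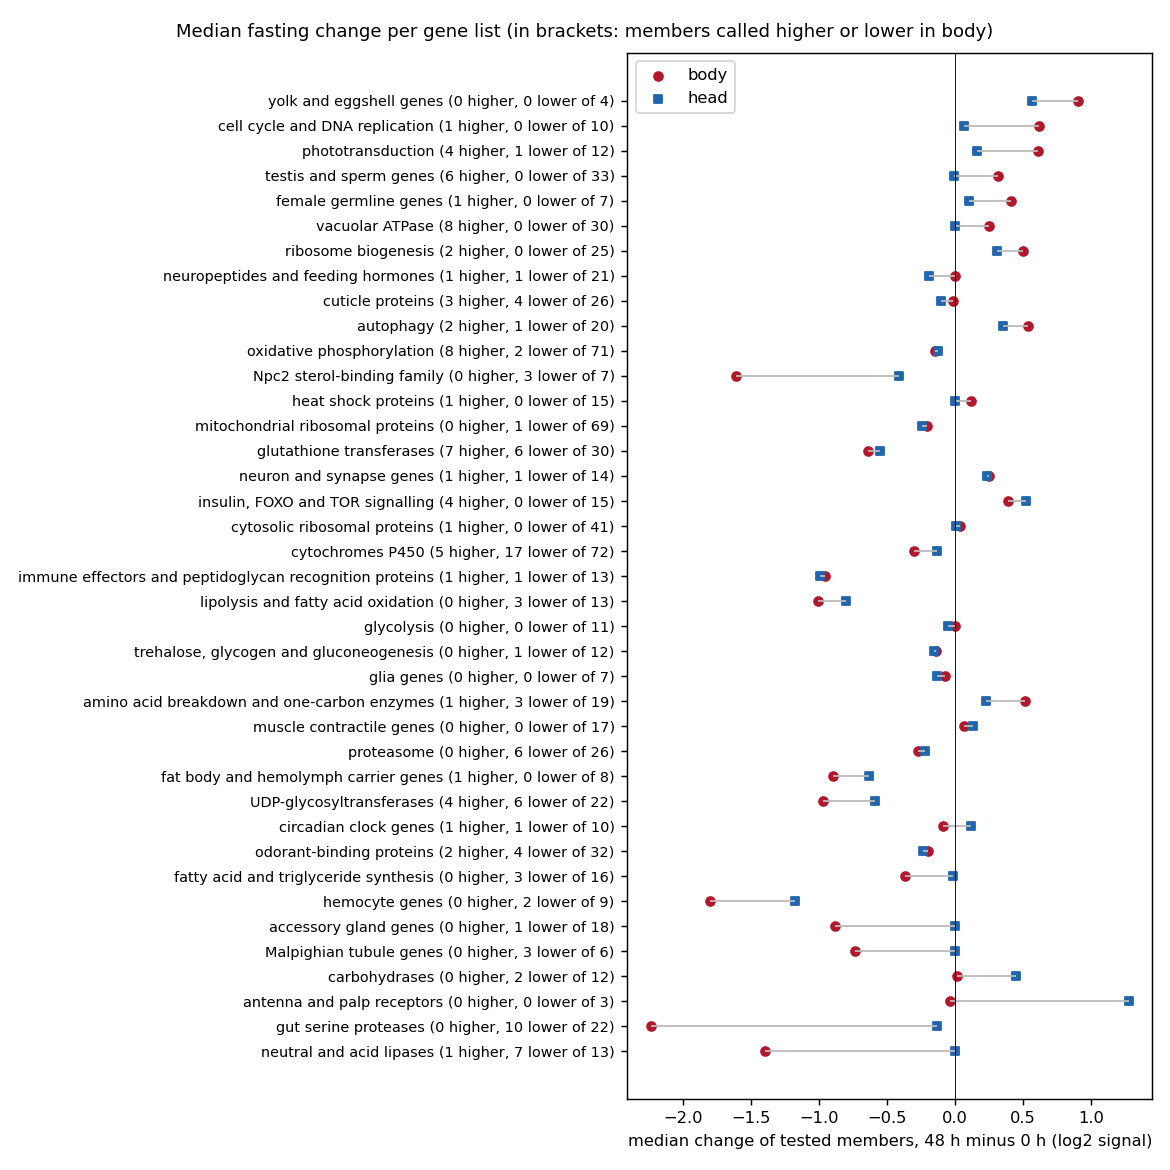
Median change from 0 to 48 h in body (circles) and head (squares), in log2 signal, over the tested members of each gene list with at least 3, ordered by median interaction. Brackets give members called higher and lower in body; gut serine proteases (-2.24) and hemocyte genes (-1.81) lie farthest to the left in body, and members at the floor in a part count there with changes near 0.

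Among genes of protein breakdown, protein synthesis and muscle, the proteasome held the most calls, in a share close to the 21.4% of all genes. Of 26 proteasome genes, 12 fell in body and 11 in head, with 0 called higher and 6 lower (median -0.09), a total of 3 in the paired fit and 3 without Head 48 h replicate 4. The subunit genes Prosalpha4 (-0.91 ± 0.24, adjusted p = 0.00541) and Rpn12 (-0.80 ± 0.17, adjusted p = 0.0003) fell by 1.37 ± 0.17 and 0.89 ± 0.12 in body. Rpn1 (-0.77 ± 0.25, adjusted p = 0.022) was lost without Head 0 h replicate 2, Head 48 h replicate 4 or Body 48 h replicate 1 (adjusted p = 0.0535, 0.0823 and 0.0671). Of 41 cytosolic ribosomal proteins, RpL24-like alone was called (0.72 ± 0.27, adjusted p = 0.0489), lost in the paired fit (adjusted p = 0.115) and without any 1 of 14 arrays (adjusted p up to 0.159), and the list held 2 without Body 48 h replicate 3 and 3 in the paired fit. Of 69 mitochondrial ribosomal proteins, 19 fell in each part and mRpL10 alone was called in the interaction (-0.51 ± 0.15, adjusted p = 0.0136), lost in the paired fit (adjusted p = 0.0843) and joined by a second gene without Body 48 h replicate 1, 2 or 3 and by 2 more without Body 0 h replicate 4. None of 17 muscle contractile genes was called by limma, with 0 at an unadjusted p under 0.05, 0 in the paired fit and 0 in every fit that left out 1 array.

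Several blood cell and immune genes fell in each part. Of 9 hemocyte genes, 7 fell in body and 6 in head, with 0 called higher and 2 lower (median -0.48), and both of the latter fell in body with no call in head. PPO2, the prophenoloxidase gene of crystal cells, read 9.08, 9.39, 9.57, 9.79 and 9.10 in body at 0 h and 2.99, 2.82, 7.28 and 4.09 at 48 h, a fall of 5.09 ± 0.53 against a head change of -1.24 ± 0.53 (-3.85 ± 0.74, adjusted p = 0.000124). Head arrays of PPO2 did not overlap between times either, at 10.90 to 11.84 and then 9.80 to 10.60, although that change was not called. Pxn, which encodes peroxidasin, fell by 2.22 ± 0.31 in body and lay at 10.70 to 11.70 on all head arrays (-2.07 ± 0.44, adjusted p = 0.000452). In the paired fit 4 of the 9 were called. Drs, the antifungal peptide gene Drosomycin, fell in head instead, from 13.05, 12.08, 11.82, 11.23 and 10.33 to 9.31, 9.27, 8.57 and 8.17, with body at 12.31 to 13.01 throughout (3.02 ± 0.87, adjusted p = 0.00943). PGRP-LB, a peptidoglycan amidase gene, rose by 0.94 ± 0.24 in head with -0.23 ± 0.24 in body (-1.17 ± 0.33, adjusted p = 0.00881), a call lost without both 48 h arrays of pool 4 (adjusted p = 0.108) and with the 18 arrays alone (adjusted p = 0.056). These were the 2 called of 13 immune genes, a count of 4 in the paired fit and 4 without Body 0 h replicate 3 or Body 48 h replicate 4.

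Of 32 odorant-binding protein genes, 2 were called higher and 4 lower (median -0.25). Obp56e read 9.01, 9.09, 9.02, 9.70 and 10.82 in body at 0 h and 2.56, 3.19, 2.44 and 2.27 at 48 h, at least 46.1-fold lower. Head arrays read 10.71, 10.51, 8.53, 9.14 and 6.62 at 0 h and 9.01, 6.58, 7.84 and 4.66 at 48 h. The body groups were fully apart and the head groups overlapped (-4.84 ± 1.09, adjusted p = 0.000899). Obp19d fell by 2.12 ± 0.29 in head with 0.15 ± 0.29 in body (2.27 ± 0.41, adjusted p = 5.05e-05). Of 26 cuticle protein genes, 3 were higher and 4 lower (median 0.15). Among them, Cpr67Fb fell by 1.01 ± 0.38 in body and rose by at least 2.50-fold in head (-3.50 ± 0.53, adjusted p = 1.96e-06), and Cpr49Ab, at the floor in head, fell by 1.89 ± 0.33 in body (-1.74 ± 0.47, adjusted p = 0.00548).

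Among 12 phototransduction and visual genes, 4 were called higher and 1 lower (median 0.46), a total of 3 without Body 48 h replicate 2 and 2 without Body 48 h replicate 4. ninaD, which encodes the scavenger receptor that takes up carotenoids, fell in both parts and further in body: body arrays read 11.57, 10.42, 11.70, 11.59 and 10.28 at 0 h and 6.45, 6.78, 3.64 and 3.55 at 48 h, and head arrays 6.75 to 7.14 and then 4.15 to 6.41 (-4.10 ± 0.79, adjusted p = 0.000124). Arr1, the arrestin 1 gene, rose in body from 3.10, 3.98, 3.70, 3.65 and 7.86 to 6.06, 6.39, 7.62 and 9.80 and was not called in head, at 14.21 to 14.58 (2.91 ± 0.91, adjusted p = 0.0173). It was lost in the paired fit (adjusted p = 0.0755) and without Body 48 h replicate 4 (adjusted p = 0.0875). The body arrays with the highest Arr1 were those with the highest phototransduction marker means, 5.00 in Body 0 h replicate 5, 4.38 in Body 48 h replicate 3 and 6.49 in Body 48 h replicate 4 against at most 2.58 on the others, and the part of eye transcripts in the result was not tested. The phosphatidylinositol transfer gene rdgB (1.11 ± 0.36, adjusted p = 0.0226) was lost without Body 48 h replicate 2 or Body 48 h replicate 4 (adjusted p = 0.051 and 0.114), and its second probe set had the opposite sign.

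Of 14 neuron and synapse genes, 1 was called in each direction (median 0.05). The calcium channel gene cac rose in body from 5.56, 3.47, 3.98, 3.29 and 4.08 to 9.06, 8.19, 6.89 and 7.22, with 0.42 ± 0.34 in head (3.34 ± 0.49, adjusted p = 7.64e-07). The active zone gene brp, at the floor in body, rose by 1.24 ± 0.26 in head (-1.15 ± 0.37, adjusted p = 0.0225), lost in the paired fit (adjusted p = 0.0607), without Head 0 h replicate 2 (adjusted p = 0.0567) and without Head 48 h replicate 4 (adjusted p = 0.0571). Neuron markers as a group averaged 3.35 to 3.79 in body, and 8.95 to 9.26 in head at 0 h and 9.40 to 9.77 at 48 h. Of 10 clock genes, per (-1.39 ± 0.46, adjusted p = 0.0241) and Clk (1.08 ± 0.32, adjusted p = 0.0118) were called, both from body changes of -1.10 ± 0.32 and 0.83 ± 0.23. Both were lost in the paired fit (adjusted p = 0.129 and 0.0906), and per without Body 48 h replicate 1, Body 0 h replicate 2 or Body 0 h replicate 5 (adjusted p = 0.0584, 0.0738 and 0.0509). Without Body 48 h replicate 3 the list held 4. Of 15 heat shock genes, Hsp60D alone was called (0.66 ± 0.22, adjusted p = 0.0235, head at the floor), not without Body 48 h replicate 1 or Body 48 h replicate 4 (adjusted p = 0.0617 and 0.071) or with cyclic loess (adjusted p = 0.194), and the list held 4 in the paired fit. None of 7 glia genes was called by limma, with 1 at an unadjusted p under 0.05, 1 in the paired fit and 1 without Body 0 h replicate 4. None of 3 antenna and palp receptors was called by limma, with 2 at an unadjusted p under 0.05 and 0 in the paired fit, against 2 without Head 0 h replicate 3 and 1 without Head 48 h replicate 3, Body 48 h replicate 3 or Body 0 h replicate 5. The 1 lysozyme gene tested was not called by limma, at an unadjusted p under 0.05, nor in the paired fit, but was without Head 48 h replicate 2 or Head 48 h replicate 3.

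Body and head also shared some of the steepest changes of all, for which the interaction was not called. CG7763 rose in body from 2.12, 2.67, 2.45, 2.81 and 2.60 to 9.91, 9.57, 11.45 and 7.39, at least 47.8-fold, and in head from 3.45, 3.49, 3.19, 2.21 and 2.48 to 11.07, 9.25, 9.62 and 8.22, at least 46.5-fold (0.47 ± 0.72, adjusted p = 0.699). Pfas, of purine synthesis, rose by 2.77 ± 0.22 and 2.82 ± 0.22, with an interaction of -0.04 ± 0.31 (adjusted p = 0.94), the smallest standard error of the 4 shared rises. CBP rose by 3.70 ± 0.39 and 2.90 ± 0.39 (adjusted p = 0.338) and CG8679 by 2.96 ± 0.46 and 2.87 ± 0.46 (adjusted p = 0.943). All body arrays at 0 h lay below 4 for CBP (2.09 to 2.38) and for CG8679 (2.13 to 2.75). Body 48 h replicate 4 also lay below 4 for CG8679, at 3.42. The body rises of CBP and CG8679 are therefore bounded only from below. All 4 genes were separate between times in both parts.

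Shared falls were led by genes of secreted proteins. Obp99b changed by -7.72 ± 0.64 in body and -7.46 ± 0.64 in head (-0.26 ± 0.90, adjusted p = 0.875), and fit, a satiety factor gene, by -6.74 ± 0.72 and -7.43 ± 0.72 (0.69 ± 1.02, adjusted p = 0.691). Drsl4, of the Drosomycin family, changed by -5.93 ± 0.61 and -5.95 ± 0.61 (0.02 ± 0.86, adjusted p = 0.989). Lsp2, a storage protein gene, read 11.76, 12.41, 13.28, 12.74 and 10.44 in body at 0 h and 4.57, 8.66, 2.47 and 3.32 at 48 h, and 14.19, 14.16, 14.69, 14.59 and 13.95 in head at 0 h and 10.39, 10.31, 7.77 and 7.78 at 48 h (-2.12 ± 1.57, adjusted p = 0.376). The groups did not overlap in either part. With standard errors of 0.90, 1.02 and 1.57, the interactions of Obp99b, fit and Lsp2 leave room for differences larger than those errors.

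At 24 h, 1273 probe sets were called (11%), from a contrast that uses the same 0 h arrays. The values are therefore given side by side and were not tested against each other. For mag the interaction was -8.52 at 24 h and -8.45 at 48 h, for CG17192 -7.51 at both times, for CG7381 -5.75 and -6.17, and for Ama -5.64 and -6.02. For these genes the 24 h value was close to that at 48 h. Other genes had values nearer 0 at 24 h: CG33325 -1.97 against -6.75, Cyp6a18 -0.28 against -3.30, GstD5 -0.35 against -3.32, PPO2 -1.02 against -3.85, Obp56e -0.99 against -4.84, and Drs 0.77 against 3.02. Between these lay Ilp5 at 3.21 and 5.21, hll at -2.19 and -4.62, and Dtd at 2.12 and 5.08. For hll the body signal was higher at 24 h (6.16 to 8.69) than at 48 h (3.14 to 4.34). Obp99b, not called at 48 h, had an interaction of 3.03 at 24 h (adjusted p = 0.014).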

How the data were processed

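Total RNA was extracted, amplified and biotin-labelled, per the labels' protocols, and hybridised to one-colour Affymetrix arrays. The deposited values are log2 signals that the authors computed with GCRMA, per the submitters' processing notes (version not given in the sources used here). GCRMA scales all arrays to a shared distribution, so changes in total RNA cannot be read, and low signals sit at a floor near 2.08. No count or sequencing depth exists for arrays, and the number of arrays limits precision. Of 18952 probe sets, 183 controls were left out. Of the rest, 13646 had 1 gene in the platform annotation, 402 several and 4721 none, and only the first were named. Where a gene had several probe sets, the one with the highest average signal stood for it.

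Probe sets at log2 4 or more on at least 4 of the 18 arrays were fitted with limma 3.58.1 in R 4.3.3 as 12 group means over 56 arrays (44 residual degrees of freedom), with two-sided moderated tests and Benjamini-Hochberg adjustment over 11543 probe sets at 0.05. Figures were drawn with matplotlib 3.10.9. On simulated data the fit recovered 9.5%, 49% and 89.5% of shifts of 0.5, 1 and 2 log2 units at 200 probe sets of 11543, with 9.52%, 7.55% and 5.79% false calls. A fold is given as a lower bound where 1 time lay below 4 on every array, with 4 as the lower level.

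Pool numbers in the labels pair body and head arrays. Residuals of such pairs correlated at a mean of 0.0514 (n = 9) against -0.0143 for other pools (n = 32), and those of the same part and pool at 0 and 48 h at 0.191 (n = 6) against -0.0347 (n = 34). The design text names no block, so the pairing was an alternative: each pool and time as a block over 18 arrays (the paired fit), and pool as a fixed or random block. The reported fit had no pool term, and each array counted as a replicate. Within a group, each array came from a different pool. The p-values of that fit therefore measure the spread between arrays within groups, pooled over all groups of the study, antenna and palp included. Arrays of the same pool in different groups were treated as independent there. For 1 Body 48 h array the replicate number in the title was used, since the source name gives another.

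Named genes were the largest interactions among called genes in each class of floor, 8 opposite calls, up to 3 called genes for each of 40 lists, a set of feeding and energy genes, and the largest shared changes. chico, CG7367, Lip2, GstD1, Cyp313a4, Cyp6a8 and the -like respiratory genes were chosen after their values were seen. The members and lists were chosen with earlier results of these data known, so no pattern shown by those is independent support. Lists are described by counts and medians, without a test. Promoter sequences were not used here.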

Additional observations from a re-analysis of the deposited data

Results flagged for a closer look

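In 371 groups of 4 or 5 arrays of the named genes, 30 held a lone array far from the others, where chance gives about 1 in 20. In body these were CG34290 at 5.50 on 0 h replicate 4 and 7.88 on 48 h replicate 2, Jon99Fi at 5.35 on 48 h replicate 3, Jon25Bii at 6.21 on 48 h replicate 4, Npc2d at 5.01, RpL24-like at 13.95, Pxn at 5.35, Ugt37A2 at 4.23 and apolpp at 13.53 on 48 h replicate 2, UQCR-11L at 11.99 and Vha16-5 at 7.39 on 48 h replicate 3, PGRP-LB at 7.71 on 48 h replicate 1, Rpn1 at 9.43 and Pfas at 8.61 on 0 h replicate 1, Vha36-3 at 10.87, Arr1 at 7.86 and Acp76A at 13.68 on 0 h replicate 5, and bgcn at 5.94 on 0 h replicate 3. In head they were CG17192 at 6.62, Jon25Bi at 10.03 and Jon25Bii at 9.20 on 0 h replicate 2, Jon25Bi at 7.89 and Jon25Bii at 8.34 on 48 h replicate 3, Root at 6.22 and Pxn at 11.38 on 48 h replicate 4, and ATPCL at 5.97, Sardh at 8.32, Clk at 9.12, Obp99b at 11.32 and fit at 9.26 on 0 h replicate 5.

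Of the 57 probe sets that changed in opposite directions in body and head with a called interaction, the 8 genes whose smaller change was largest were mag (-8.45), CG40486 (-3.70), SmydA-2 (-2.74), CG5731 (-2.54), spirit (-2.52), CG43085 (2.85), Root (3.19) and CG5653 (3.64).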

How the results depend on the processing

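The total of 2326 calls was 1729 to 3347 over all alternatives: 2100 in the paired fit, 2671 and 2639 with pool as a fixed or random block, 2575 with the 18 arrays alone, 2027 with cyclic loess, 3347 with array weights, and 1851 to 2681 with 1 array left out. Calls with a part at the floor (939) were 1461 with the 18 arrays alone, 1456 and 1458 with quantile scaling repeated over them or within each part, 1443 with array weights and 744 to 1088 with 1 array left out. Opposite calls (57) were 145 with array weights, 41 to 89 with 1 array left out (89 without Head 0 h replicate 5) and, in a setting chosen after seeing the data, 37 without both 48 h arrays of pool 4. That setting left 1729 calls, and leaving out both 0 h arrays of pool 9, also chosen afterwards, left 2251. The share of calls higher in body was 48.6% to 62.9% (53.2% as reported).

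Of 102 called named genes, 69 kept the call in every alternative and none changed direction. The pairing of pools ended 23 calls, given with the genes, and made that of Ilp2; apart from these it changed no call among named genes. In other alternatives calls were gained by ImpL2 with pool as a fixed or random block, tobi with pool as a fixed block, without Head 0 h replicate 5 or without pool 9 at 0 h, FASN1 with array weights or without Body 48 h replicate 3, and Ilp2 with the 18 arrays alone. The causes were not tested. Opposite calls were not counted in the paired fit, which gives no change per part. The planned description of promoter motifs was not run. At this number of arrays, 9.5% of simulated shifts of 0.5 were recovered, with 200 of 11543 probe sets shifted. In the data 2326 were called, so recovery there may differ from the simulated one. Uncalled differences of that size cannot be read as absent, and signals below 4 bound a level without giving it.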

Other observations

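The 0 h arrays of pool 9 (replicate 5 of body and of head) were the lowest of their groups for several genes that fell with fasting in both parts: fit read 6.78 in body against 9.26 to 10.82 on the other arrays and 9.26 in head against 11.47 to 11.56, Obp99b 11.00 against 12.43 to 13.04 and 11.32 against 13.40 to 14.02, and Lsp2 10.44 against 11.76 to 13.28 and 13.95 against 14.16 to 14.69. Drsl4 read 9.94 against 10.45 to 11.06 in body and 7.56 against 9.38 to 10.83 in head. Head 0 h replicate 5 was also the lowest for Drs (10.33) and tobi (8.91), and its 3′ minus 5′ signal of 5.18 was the highest of the unfasted heads. These arrays were picked out after their values were seen, and no test was made.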
